A study of Mus musculus with 6 samples.

Results

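To ask how much of the IL-4 pattern of open chromatin was present in macrophages given MCSF and IL-4 together, accessibility in the MCSF + IL-4 library was compared with accessibility in the Untreated library. Both are ATAC-seq libraries of wild-type C57BL/6 (C57BL/6J in the protocol) mouse bone marrow-derived macrophages (BMDMs), which were grown from marrow in medium conditioned by L929 cells. ATAC-seq uses a transposase that cuts open DNA and leaves sequencing adapters there, so the reads at a site measure how accessible it is. The series has 6 groups of 1 library each. Untreated cells received nothing, and DMSO cells received the solvent alone. IL-4 and DMSO + IL-4 cells received IL-4 at 20 ng/ml for 24 hours. LatA + IL-4 cells received the same IL-4 with latrunculin A at 1 μM, and MCSF + IL-4 cells received it with MCSF (also called CSF1) at 100 ng/ml. A library with MCSF and without IL-4 was not analysed here, so an effect of MCSF and an effect of IL-4 on this ratio cannot be told apart from these libraries alone.

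The sites described are those on the 19 autosomes whose mean over the 6 deposited signal columns was at least 3.2. The signal is CPM (counts per 1e+06 reads) after trimmed mean of M-values (TMM) scaling, and 3.2 stands for 49.4 reads in a library of average size. Of 578591 sites in the table, 534067 were autosomal and 33476 passed this filter (6.27% of the autosomal sites). Sites that respond to IL-4 were picked among them from DMSO + IL-4 against DMSO, here called the DMSO pair, because that pair shares no library with MCSF + IL-4 against Untreated. By a threshold of 1.5-fold, 4718 sites were raised by IL-4 in the DMSO pair (14.1% of the sites), 3478 were lowered (10.4%) and 25280 were neither. The site nearest the filter on the inside, on chromosome 2 (mm9 chr2:20073515-20074597), had 42 reads in MCSF + IL-4 and 83 in Untreated. The nearest on the outside, on chromosome 15 (mm9 chr15:28249291-28249955), had 68 and 40.

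IL-4 acts on macrophages through a receptor that activates the transcription factor STAT6, and it drives the alternative activation that is linked to tissue repair. Many genes of that program lie near enhancers that are closed or weak in resting macrophages and gain accessibility when IL-4 is present. MCSF is the growth factor on which macrophages depend for survival and proliferation. It signals through the receptor tyrosine kinase CSF1R and remodels the actin cytoskeleton. Latrunculin A binds actin monomers and prevents filaments from forming.

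Each ratio below compares 1 library with 1 other library, so there is no replicate error, no test was made, and no difference can be set against the spread between cultures. Intervals are 95%. Those of ratios cover counting error only, and those of shares and medians treat sites as independent, which sites of 1 library are not. Reads in sites ranged from 12387332 in DMSO + IL-4 to 19889902 in Untreated, with 13479282 in MCSF + IL-4. The 281 strongest of the 33476 sites, which average 1000 reads or more, took 33.5% of the reads in Untreated and 24.3% in MCSF + IL-4. The remaining sites took 18.8% and 28.4%, and 30.5% in LatA + IL-4, against 20.8% in IL-4, 21.9% in DMSO + IL-4 and 21.3% in DMSO. The MCSF + IL-4 and LatA + IL-4 libraries therefore had more of their reads at ordinary sites than the other 4. This moves with the ratios to Untreated given here, and its part in them was not tested. The table carries positions in mm9 and no gene names, and gene positions of that build were not used here, so sites are given by position and macrophage marker genes were not examined.

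MCSF + IL-4 was higher than Untreated at most sites. Of the 33476 sites, 18639 (55.7%) were at least 1.5-fold higher and 1738 (5.19%) at least 1.5-fold lower. On the log2 scale the median ratio was 0.67 (0.67 to 0.68), or 1.59-fold. Of the sites past 1.5-fold in either direction, 91.5% were higher. This split followed the scaling. With reads outside the strongest sites as the scale the median was 0.39 and 78.8% of the sites past the threshold were higher. With each log2 ratio centred on the median of the 33476 sites, 6892 (20.6%) were higher and 6675 (19.9%) lower, so that 50.8% of those past the threshold were higher. Class summaries are therefore given on both scales. Ratios of single sites, widths and chromosomes are on the deposited scale, and relative to the median site the ratios to Untreated there are 1.59-fold lower and the log2 values 0.67 lower.

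Other libraries were also higher than Untreated at the median site, by amounts that differed. The median log2 ratio to Untreated was 0.34 for DMSO, 0.15 for IL-4 and 0.85 for LatA + IL-4. Sites at least 1.5-fold higher than Untreated made up 17.4% in DMSO, 22.7% in IL-4 and 69.4% in LatA + IL-4. Sites at least 1.5-fold lower made up 2.08%, 5.49% and 6.33%. All of these ratios share the Untreated library. MCSF + IL-4 stood nearer to LatA + IL-4 than to IL-4 in this respect, with a median log2 ratio of −0.11 to LatA + IL-4 and 0.56 to IL-4.

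The rise over Untreated was spread over sites of all but the highest signal. At sites with a mean signal from 3.2 to 6.4 the median log2 ratio was 0.65, and at the next doubling of signal it was 0.73. At the 348 sites of highest mean signal it was 0.35, with 28.4% of the sites at least 1.5-fold higher and 16.4% lower. The 281 sites of at least 1000 reads had a median of 0.26, and 62 of them were higher and 53 lower. Among these, the first 34 sites of chromosome 9 (mm9 chr9:2999995-3038294) had a median log2 ratio of −0.55, with 0 sites higher and 11 lower by 1.5-fold. Reads could be reported at up to 10 places by the aligner, so reads at repeated sequence are not independent.

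**Figure D1:**
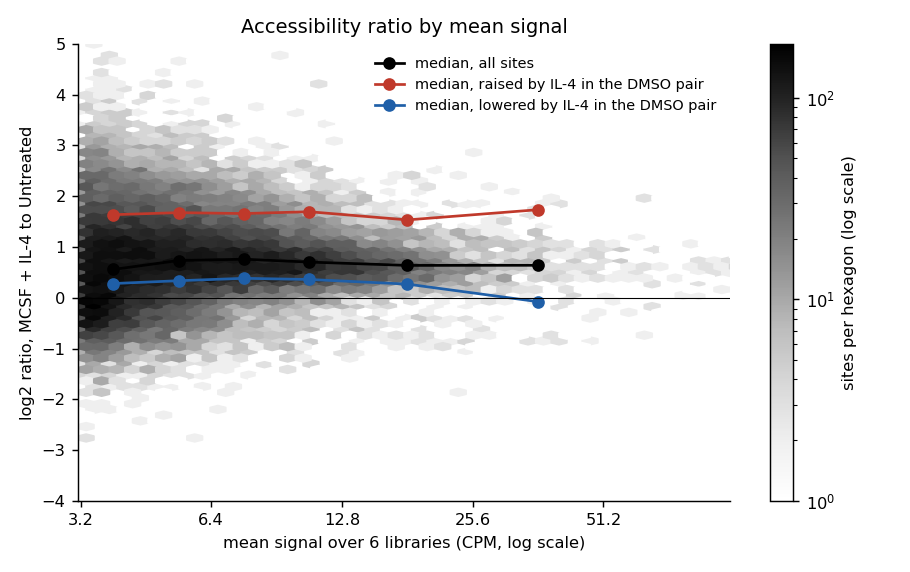
Log2 ratio of MCSF + IL-4 to Untreated at each of the 33476 sites against the site's mean signal over the 6 libraries (log scale, CPM; the axis ends at 100). Grey hexagons count sites on a log scale, and lines join medians in bins of signal that hold at least 20 sites. The black line for all sites lies above 0 throughout, the red line for sites raised by IL-4 in the DMSO pair lies near 1.65, and the blue line for lowered sites lies below the black one.

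Sites raised by IL-4 in the DMSO pair were higher in MCSF + IL-4 as well. At these 4718 sites the median normalized reads were 35.5 in Untreated and 39.6 in DMSO. They were 70.7 in IL-4 and 82.9 in DMSO + IL-4. With latrunculin A they were 104, and with MCSF 111. The 4 IL-4-treated libraries thus stood above both controls, which the choice of sites fixes for DMSO + IL-4 over DMSO. The libraries with MCSF and with latrunculin A had the highest medians at all sites too, where the values were 71.7 in IL-4, 76.7 in DMSO + IL-4, 104 in MCSF + IL-4 and 113 in LatA + IL-4. The median log2 ratio of MCSF + IL-4 to Untreated at raised sites was 1.65 (1.62 to 1.68), or 3.14-fold, compared with 0.67 at all sites. A rise of at least 1.5-fold was seen at 4070 of the 4718 sites, or 86.3% (85.3 to 87.2), against 55.7% of all sites. A further 353 were higher by less than 1.5-fold, 175 were lower by less than 1.5-fold and 120 (2.54%) were lower by at least 1.5-fold, against 5.19% of all sites. Of the higher calls over all sites, 99.8% had an interval that left out a ratio of 1, which the filter and the threshold favour. An interval wholly above 1.5-fold was less common, at 55.7% of the higher calls. In the DMSO pair, which defines the classes, 36.5% of the raised calls and 13.7% of the lowered calls had an interval wholly past 1.5-fold.

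The filter bears on these counts. A signal of 3.2 was not reached in either control library at 2793 of the raised sites (59.2%), which passed the filter through libraries that received IL-4, and MCSF + IL-4 is 1 of those. The same was true of 15.0% of all sites. Counts over the raised sites are for that reason read beside those under 2 other filters. At the 1613 raised sites that reached 3.2 in DMSO itself, 1345 (83.4%) were at least 1.5-fold higher in MCSF + IL-4 than in Untreated, against 50.4% of the 27579 sites of all classes that did so. Their median log2 ratios were 1.42 and 0.59. When the filter used only the 4 libraries other than MCSF + IL-4 and Untreated, 84.8% of the 4753 raised sites were higher, against 54.4% of all sites, with a median of 1.58. That filter kept 33984 sites. Every library in it except DMSO received IL-4, so raised sites could still pass it through IL-4 libraries. This alternative was chosen after seeing the data. In each class the median ratio was higher at sites with a DMSO signal from 1.3 to 3.2 than at sites above that range. Where the DMSO signal was under 1.3, 501 of 509 sites were raised, with a median log2 ratio of 2.87 against 2.85 for the 509, so there were hardly any others to compare them with. From 1.3 to 3.2 the 2604 raised sites had a median of 1.69, with 86.7% higher, and the 2717 sites that were neither raised nor lowered had 1.06, with 72.2% higher. From 3.2 to 6.4 the medians of these 2 classes were 1.43 and 0.57, and above 6.4 they were 1.37 and 0.63. Raised sites thus had the higher median in each of these 3 ranges, by less from 1.3 to 3.2 than above it.

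Relative to the median site, the rise in MCSF + IL-4 was near that in the DMSO pair which picked the sites, and somewhat smaller under the 2 other filters. The centred median log2 ratio at raised sites was 0.99 in the DMSO pair, a value fixed by the choice of sites, and 0.98 in MCSF + IL-4 against Untreated. The filter bears on the second value. At the raised sites that reached 3.2 in DMSO, less the median of all such sites, the values were 0.91 and 0.83, and with the filter on the other 4 libraries they were 0.98 and 0.93. It was 0.87 in IL-4 against Untreated and 0.74 in LatA + IL-4 against Untreated. On this scale 3182 raised sites (67.4%) were at least 1.5-fold higher in MCSF + IL-4, against 20.6% of all sites, and 347 (7.35%) were lower, against 19.9%. The shares higher were 68.0% in IL-4, against 17.0% of all sites, and 58.9% in LatA + IL-4, against 16.6%. These 3 comparisons share the Untreated library, so they are set side by side only. On the deposited scale the shares of raised sites higher than Untreated were 75.7% in IL-4, against 22.7% of all sites, and 88.7% in LatA + IL-4, against 69.4%. The medians were 1.02 and 1.59, against 0.15 and 0.85 at all sites.

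**Figure D2:**
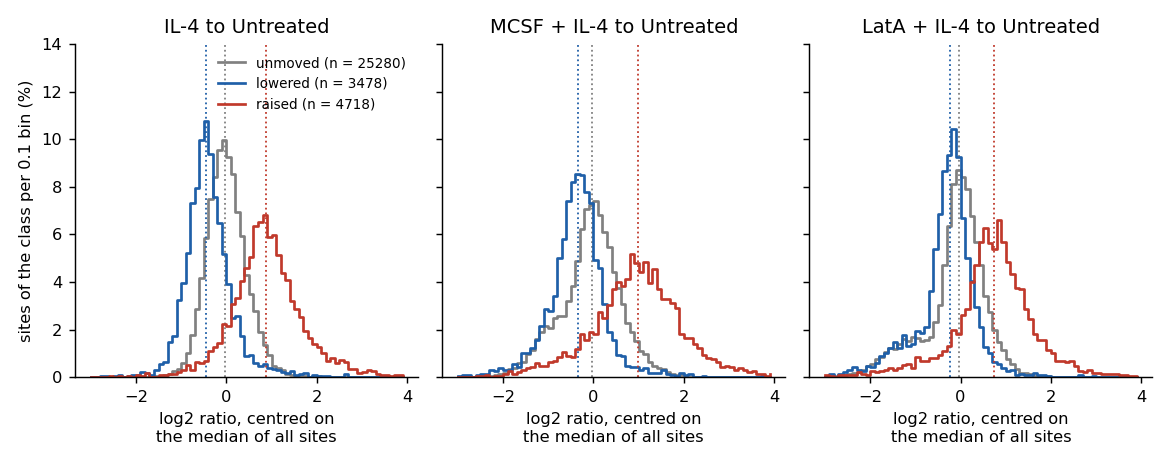
Distribution of log2 ratios to Untreated for IL-4 (left), MCSF + IL-4 (middle) and LatA + IL-4 (right), as the percent of each class of sites per bin of 0.1, each ratio centred on the median of the 33476 sites. Red marks the 4718 sites raised by IL-4 in the DMSO pair, blue the 3478 lowered and grey the 25280 others, with dotted lines at the class medians. The red curve lies to the right in all 3 panels, with its median at 0.98 in MCSF + IL-4, and the blue curve is shifted less, with its median at −0.35.

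The size of the rise in MCSF + IL-4 followed the size of the rise in the DMSO pair. At the 2590 sites raised 1.5- to 2-fold in the DMSO pair the median log2 ratio of MCSF + IL-4 to Untreated was 1.40 (0.73 centred), and 83.1% were at least 1.5-fold higher. At the 1713 sites raised 2- to 4-fold it was 1.97 (1.3 centred), with 89.4% higher. At the 415 sites raised more than 4-fold it was 2.95 (2.28 centred), with 93.3% higher. Of all sites 55.7% were higher. Relative to the median site the shares higher in the 3 bins were 57.8%, 77.3% and 86.7%, against 20.6% of all sites. Many of these sites passed the filter through libraries with IL-4, so the bins were also made under the 2 other filters. With the filter on the 4 libraries other than MCSF + IL-4 and Untreated, the 3 medians less that of all sites were 0.69, 1.22 and 2.19. At sites that reached 3.2 in DMSO they were 0.76 (1237 sites), 1.19 (368 sites) and 1.81 (8 sites). The order of the 3 bins was the same under each filter, though the last bin held few sites under the second. Sites that rose by less than 1.5-fold in the DMSO pair had a median of 1.02 (0.34 centred), and sites within 1.2-fold had 0.65 (−0.02 centred). The order of the bins was thus the same in both comparisons on the raised side. IL-4 and LatA + IL-4 ran through the same order, with centred medians of 2.14 and 1.85 at the sites raised more than 4-fold. Across the 33476 sites the log2 ratios of MCSF + IL-4 to Untreated and of the DMSO pair had a Pearson correlation of 0.50 and a Spearman correlation of 0.44. At the 12651 sites with a mean signal of at least 6.4 the values were 0.57 and 0.53. For IL-4 to Untreated against the DMSO pair they were 0.63 and 0.61 over all sites and 0.72 and 0.70 at the stronger ones. The points are sites within the same 4 libraries and share their depth, so these values describe the libraries and are not tests.

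**Figure D3:**
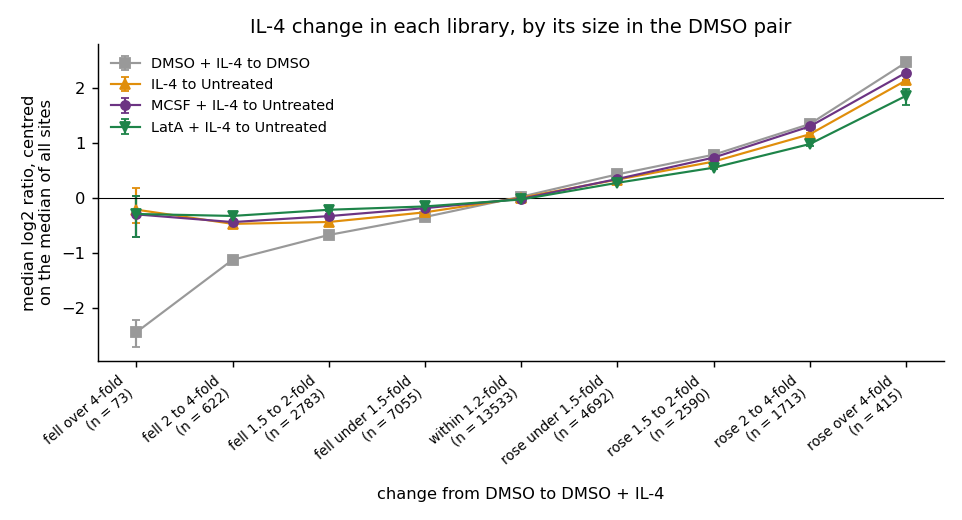
Median log2 ratio, centred on the median of the 33476 sites, in 9 bins of sites made from the change between DMSO and DMSO + IL-4. Grey squares are the DMSO pair itself, which fixes the bins, and orange, purple and green are IL-4, MCSF + IL-4 and LatA + IL-4 against Untreated. Error bars are 95% order-statistic intervals over sites. On the right all 4 lines climb together, to 2.28 in MCSF + IL-4 at the sites raised more than 4-fold. On the left the 3 lines that do not fix the bins level off, at −0.30 in MCSF + IL-4.

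At 1.5-fold, raised sites were lower in MCSF + IL-4 than in IL-4 alone about as often as sites of all classes were. The direct log2 ratio of MCSF + IL-4 to IL-4, in which neither library was used to call sites raised, though both enter the filter, had a median of 0.61 (0.59 to 0.63) at raised sites and 0.56 at all sites. At least 1.5-fold lower were 217 raised sites (4.60%, 4.02 to 5.24), against 5.01% of all sites. At least 1.5-fold higher were 2441 (51.7%), against 47.4%. Relative to the median site, 758 raised sites (16.1%) were lower, against 18.5% of all sites, and 794 (16.8%) were higher, against 8.87%. With the filter on the 4 libraries other than MCSF + IL-4 and Untreated, the shares lower were 6.56% and 6.36%, and with 2-fold in place of 1.5-fold both for raised (2128 sites) and for lower they were 2.16% and 1.34%.

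Of the 5 sites with the largest rise in both comparisons, 4 had fewer than 10 normalized reads in each control. At chromosome 2, 65387228 to 65387792, normalized reads were 2.22 in Untreated and 2.70 in DMSO. They were 82.5 in IL-4, 105 in DMSO + IL-4, 73.8 with latrunculin A and 86.7 with MCSF. All 4 IL-4 libraries were high and both controls low, with 3 reads counted in each control. The ratio of MCSF + IL-4 to Untreated was 39.1 (12.9 to 194) and that of MCSF + IL-4 to IL-4 was 1.05 (0.76 to 1.45). The site at chromosome 12, 13416802 to 13417536, had 3.70 and 5.40 in Untreated and DMSO and 93.7 in MCSF + IL-4, between 90.3 in IL-4 and 132 in DMSO + IL-4, with 101 in LatA + IL-4. Its ratio to Untreated was 25.3 (10.4 to 80.1), again with a ratio to IL-4 near 1, at 1.04 (0.76 to 1.42). At these 2 sites MCSF + IL-4 and IL-4 did not differ beyond counting error on the deposited scale. Relative to the median site, where MCSF + IL-4 was 1.47-fold over IL-4, the ratios were 0.72 (0.52 to 0.99) and 0.71 (0.52 to 0.96), below 1. The 5 were picked for high values in MCSF + IL-4 and DMSO + IL-4 and low ones in Untreated and DMSO, and the filter takes in all 6 libraries, so none of these values is free of the choice.

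The other 3 were higher in MCSF + IL-4 than in IL-4 on the deposited scale. At chromosome 6, 121144546 to 121144951, normalized reads were 2.22 in Untreated, 2.70 in DMSO, 55.0 in IL-4, 69.3 in DMSO + IL-4, 85.4 with latrunculin A and 98.4 with MCSF. Its ratio to Untreated, 44.3 (14.7 to 219), was the largest of the 5. At chromosome 1, 13742380 to 13743145, the values were 9.62 in Untreated, 4.50 in DMSO, 114 in IL-4, 124 in DMSO + IL-4, 127 with latrunculin A and 207 with MCSF. The 3 IL-4 libraries without MCSF lay close together there and MCSF + IL-4 was 1.82-fold above IL-4 (1.43 to 2.32). Relative to the median site this was 1.24 (0.97 to 1.58), within counting error, as was the site on chromosome 6 at 1.22 (0.86 to 1.74). The strongest site, at chromosome 16, 58415270 to 58415923, had 38.5 in Untreated and 14.4 in DMSO. It had 290 in IL-4, 379 in DMSO + IL-4, 195 with latrunculin A and 715 with MCSF. The 2 added treatments went opposite ways at this site. MCSF + IL-4 was 2.47-fold above IL-4 (2.14 to 2.85), or 1.68 (1.46 to 1.94) relative to the median site, and LatA + IL-4 was 1.94-fold below DMSO + IL-4 (1.61 to 2.34).

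**Figure D4:**
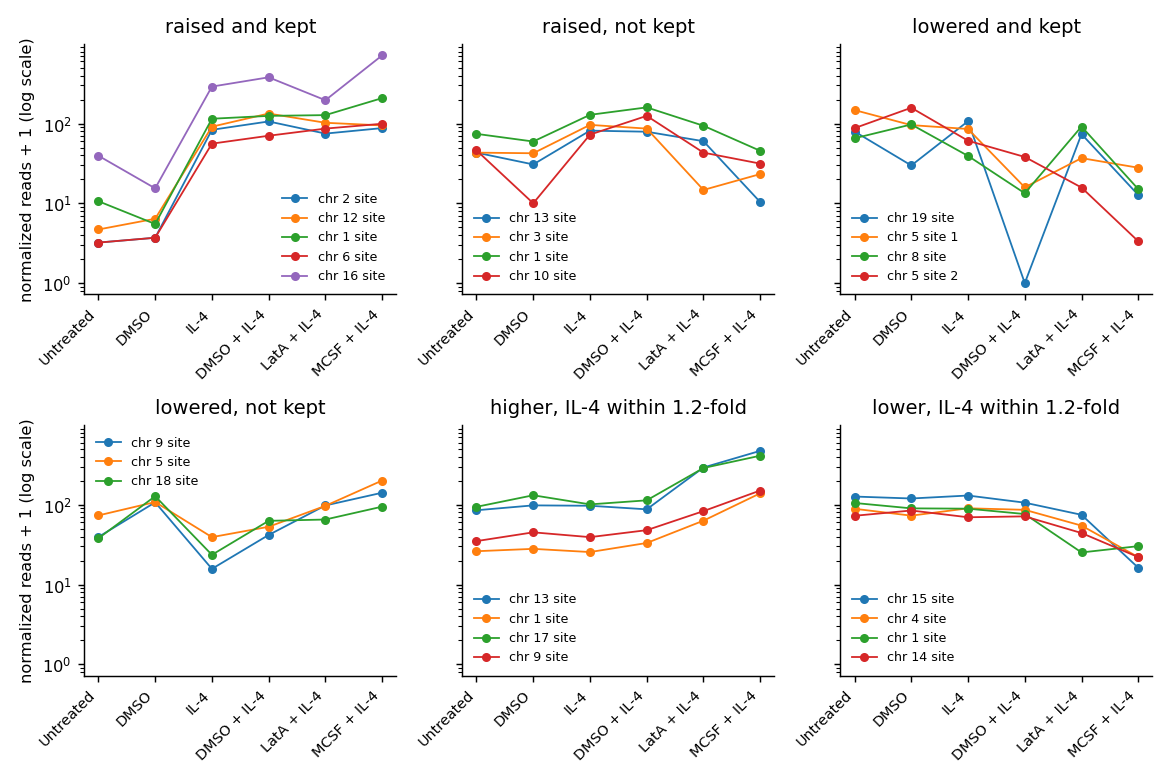
Normalized reads plus 1 (log scale) in the 6 libraries at the 24 sites named by rule, 1 line per site, labelled by chromosome (where a panel holds a chromosome more than once, numbered along it). Panels hold sites raised by IL-4 and higher again in MCSF + IL-4, raised but not higher, lowered and lower again, lowered but not lower, and sites within 1.2-fold in both IL-4 comparisons that were highest or lowest in MCSF + IL-4. In the first panel both controls lie under every IL-4 library, and in the last panel MCSF + IL-4 is lowest or next to lowest.

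The 648 raised sites that did not reach 1.5-fold in MCSF + IL-4 differed from the 4070 that did in width, level and surroundings. Their median width was 941 bp, against 620 bp for those that did and 745 bp for all sites. They had a median of 84 reads, as counted, in Untreated, against 44, and of 50 in MCSF + IL-4, against 101. The median log2 ratio in the DMSO pair, which neither library of this comparison enters, was 0.81 at these sites and 0.97 at the others. Another raised site lay within 10 kb of 10.2% of them, of 18.9% of the others and of 10.3% of all sites. Their level in Untreated enters the ratio that defines them, so it is a description only, and a high count in Untreated by counting error would also place a site here.

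Sites of this kind with the clearest IL-4 rise were looked for among the 1810 that were at least 2-fold higher in the DMSO pair and 1.5-fold higher in the pair without vehicle, IL-4 against Untreated. Of these 1810, 62 missed 1.5-fold in MCSF + IL-4, while over all 33476 sites 18639 (55.7%) reached it. The count of 62 shares Untreated with the choice of the 1810. The 4 with the lowest ratio of MCSF + IL-4 to Untreated were named and stand for few sites. At chromosome 13, 48370637 to 48371314, normalized reads were 42.2 in Untreated, 29.7 in DMSO, 80.5 in IL-4 and 78.0 in DMSO + IL-4. They were 59.1 with latrunculin A and 9.37 with MCSF. This site was lowest with MCSF by a wide margin. It stood 4.50-fold under Untreated (2.14 to 10.9) and 8.59-fold under IL-4 (4.16 to 20.6), from 8 reads in MCSF + IL-4. At chromosome 3, the site from 69784105 to 69784410, had 42.2 in Untreated, 41.4 in DMSO, 95.2 in IL-4, 85.4 in DMSO + IL-4, 13.7 with latrunculin A and 22.3 with MCSF. Both added treatments left it below the controls, by 1.89-fold (1.11 to 3.37) for MCSF + IL-4 against Untreated. The site at chromosome 1, 194495603 to 194497626, a wide site of 2024 bp, had 73.2 in Untreated, 58.5 in DMSO, 128 in IL-4, 158 in DMSO + IL-4, 92.8 with latrunculin A and 44.5 with MCSF. It was 1.65-fold under Untreated (1.12 to 2.46). At chromosome 10, 119221419 to 119222620, the values were 45.1 in Untreated and 9.01 in DMSO, 71.7 in IL-4 and 124 in DMSO + IL-4, 42.2 with latrunculin A and 30.5 with MCSF. The 2 controls also stood far apart at this site, and the ratio to Untreated, 1.48-fold lower (0.92 to 2.44), was within counting error on the deposited scale but not relative to the median site, at 2.36-fold lower (1.47 to 3.90). These 4 were picked as the lowest in MCSF + IL-4, which favours low values there.

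Sites lowered by IL-4 in the DMSO pair mostly stood above Untreated in MCSF + IL-4 on the deposited scale and below it relative to the median site. Their median normalized reads were 71.8 in Untreated and 95.5 in DMSO. They were 59.9 in IL-4, 52.0 in DMSO + IL-4, 107 with latrunculin A and 89.0 with MCSF. The 2 libraries with an added treatment thus stood above Untreated, unlike the other 2 with IL-4. On the log2 scale the median ratio of MCSF + IL-4 to Untreated was 0.32 (0.30 to 0.34) on the deposited scale and −0.35 relative to the median site, so its direction changed with the scaling. Of the 3478 lowered sites, 258 (7.42%, 6.57 to 8.34) were at least 1.5-fold lower, against 5.19% of all sites, and 975 (28.0%) were higher, against 55.7%. A further 656 were lower by less than 1.5-fold and 1589 higher by less than 1.5-fold. Relative to the median site 1103 (31.7%) were lower, against 19.9%, and 175 (5.03%) higher, against 20.6%. For IL-4 against Untreated the deposited median at these sites was −0.29, with 22.8% lower, and the centred median −0.44, with 34.9% lower against 10.0% of all sites. For LatA + IL-4 they were 0.61 and −0.24, with 24.5% lower after centring, against 19.0%.

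The fall in MCSF + IL-4 did not scale with the fall in the DMSO pair. The centred median was −0.33 at the 2783 sites lowered 1.5- to 2-fold, −0.44 at the 622 lowered 2- to 4-fold and −0.30 at the 73 lowered more than 4-fold. For IL-4 against Untreated the 3 bins had −0.44, −0.47 and −0.22. At the 73 sites the fall in the DMSO pair had a centred median of −2.44. The centred median of LatA + IL-4 against Untreated there was −0.29. None of these comparisons with Untreated, which share no library with that pair, held a fall of that size at the 73 sites. These sites had been picked for few reads in DMSO + IL-4.

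The 4 lowered sites with the largest fall in both comparisons did not behave alike across the libraries. At chromosome 5, 58237805 to 58238142, normalized reads were 146 in Untreated, 94.6 in DMSO, 84.4 in IL-4, 14.9 in DMSO + IL-4, 35.9 with latrunculin A and 26.9 with MCSF. All 4 IL-4 libraries were under both controls, and MCSF + IL-4 was 5.44-fold under Untreated (3.52 to 8.78) and 3.13-fold under IL-4 (1.96 to 5.20). At chromosome 5, 135742879 to 135744005, the values were 86.6 in Untreated, 157 in DMSO, 59.9 in IL-4, 37.1 in DMSO + IL-4, 14.8 with latrunculin A and 2.34 with MCSF, which had 2 reads. Its fall against Untreated was 37.0-fold (10.0 to 309), with the IL-4 libraries again under the controls. The site at chromosome 8, 124345997 to 124347426, had 64.4 in Untreated, 96.4 in DMSO, 38.3 in IL-4, 12.4 in DMSO + IL-4, 90.7 with latrunculin A and 14.1 with MCSF. It was low with MCSF, at 4.58-fold under Untreated (2.49 to 9.20), and at the level of the controls with latrunculin A. At chromosome 19, 55602846 to 55603827, there were 0 reads in DMSO + IL-4 and 32 in DMSO, which is 7.76-fold lower with 3 reads in DMSO + IL-4 as the floor. With counting error in both libraries the lower bound was 5.95-fold. The other normalized reads there were 78.4 in Untreated, 106 in IL-4, 72.8 with latrunculin A and 11.7 with MCSF, so IL-4 without vehicle was not lower at this site.

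In all, 223 sites were lowered at least 2-fold in the DMSO pair and 1.5-fold in IL-4 against Untreated. Of these, 171 were not 1.5-fold lower in MCSF + IL-4 on the deposited scale. Over all sites 5.19% were 1.5-fold lower, so most sites of any kind were not. The count of 171 shares Untreated with the choice of the 223. The 3 with the highest ratio to Untreated were named. At chromosome 9, 87099640 to 87101195, normalized reads were 38.5 in Untreated, 106 in DMSO, 14.7 in IL-4, 40.8 in DMSO + IL-4, 97.0 with latrunculin A and 141 with MCSF. MCSF + IL-4 was highest of the 6, 3.65-fold over Untreated (2.62 to 5.16) and 9.55-fold over IL-4 (5.56 to 17.6). At chromosome 5, 142919054 to 142919869, the values were 72.5 in Untreated, 107 in DMSO, 38.3 in IL-4, 52.0 in DMSO + IL-4, 96.0 with latrunculin A and 200.3 with MCSF. That was 2.76-fold over Untreated (2.14 to 3.58). A site of 1297 bp on chromosome 18 had 37.0 in Untreated, 127 in DMSO, 22.6 in IL-4, 61.9 in DMSO + IL-4, 64.3 with latrunculin A and 93.7 with MCSF, or 2.53-fold over Untreated (1.76 to 3.68). Relative to the median site the 3 ratios were 2.29, 1.73 and 1.59. At each of the 3, both IL-4 libraries were under their own control and MCSF + IL-4 was over Untreated. They were picked for that, from sites with few reads in IL-4, which favours a high ratio to IL-4.

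Sites where IL-4 made little difference were looked at next. Of 6992 sites within 1.2-fold in both IL-4 comparisons, MCSF + IL-4 was at least 1.5-fold over Untreated at 3297 (47.2%, against 55.7% of all sites) and under it at 373 (5.33%, against 5.19%). With every ratio centred, 7826 sites lay within 1.2-fold in both. Of these 463 (5.92%) were higher, against 20.6% of all sites, and 1429 (18.3%) lower, against 19.9%. The balance of the 2 directions thus depended on the scaling, and no share was far above that of all sites. The highest ratio among the 6992 was at chromosome 13, 38734010 to 38735848. Normalized reads there were 84.3 in Untreated, 97.3 in DMSO, 96.2 in IL-4, 86.6 in DMSO + IL-4, 292 with latrunculin A and 473 with MCSF. The 4 libraries without an added treatment lay close together and the 2 with one were far above, with MCSF + IL-4 at 5.61-fold over Untreated (4.55 to 6.97). The next 3 sites, on chromosome 1 (71050088 to 71050663), chromosome 17 (50255210 to 50256437) and chromosome 9 (98981672 to 98982159), had ratios from 4.41 to 5.49. In each of them LatA + IL-4 was next to highest, at 2.42- to 3.09-fold over Untreated.

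The lowest ratio among these sites was at chromosome 15, 37471221 to 37472523, with normalized reads of 126 in Untreated, 119 in DMSO, 130 in IL-4, 105 in DMSO + IL-4, 73.8 with latrunculin A and 15.2 with MCSF. It was 8.26-fold under Untreated (4.70 to 15.8), and 4.85-fold under LatA + IL-4 (2.66 to 9.55). The sites at chromosome 4 (64528001 to 64529533), chromosome 1 (4549677 to 4550928) and chromosome 14 (123943693 to 123944826) were 4.18-, 3.56- and 3.40-fold lower. The site on chromosome 1 was as low in LatA + IL-4, at 24.3 normalized reads against 29.3 in MCSF + IL-4 and 104 in Untreated. The other 2 were lowest in MCSF + IL-4, at 21.1 normalized reads each. These 4 lower sites were 1134 to 1533 bp wide, above the median of 745 bp, and the 4 higher ones were 488 to 1839 bp wide.

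Width also went with differences in the ratio, larger than those by mean signal or chromosome and smaller than those by the DMSO level. Sites under 400 bp had a median log2 ratio of MCSF + IL-4 to Untreated of 0.84, those from 400 to 800 bp 0.85, those from 800 to 1500 bp 0.52, and the 2174 sites of at least 1500 bp −0.20. Of these wide sites 440 (20.2%) were at least 1.5-fold higher, against 58.1% of the 31302 narrower ones. LatA + IL-4 against Untreated had a median of −0.28 at the wide sites and IL-4 against Untreated −0.06, against 0.15 for IL-4 at all sites. Among raised sites, 88 of the 162 wide ones (54.3%) were higher in MCSF + IL-4, against 87.4% of the 4556 narrower ones. Set against all sites of their own width, however, raised sites stood higher by 0.85, 0.92, 0.82 and 0.87 on the log2 scale from the narrowest class to the widest, so the distance between raised and other sites did not shrink with width. For lowered sites the difference from all sites of their width was −0.61 under 400 bp, −0.49 from 400 to 800 bp, −0.21 from 800 to 1500 bp and 0.13 at the widest. The part of width in these ratios was not tested.

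**Figure D5:**
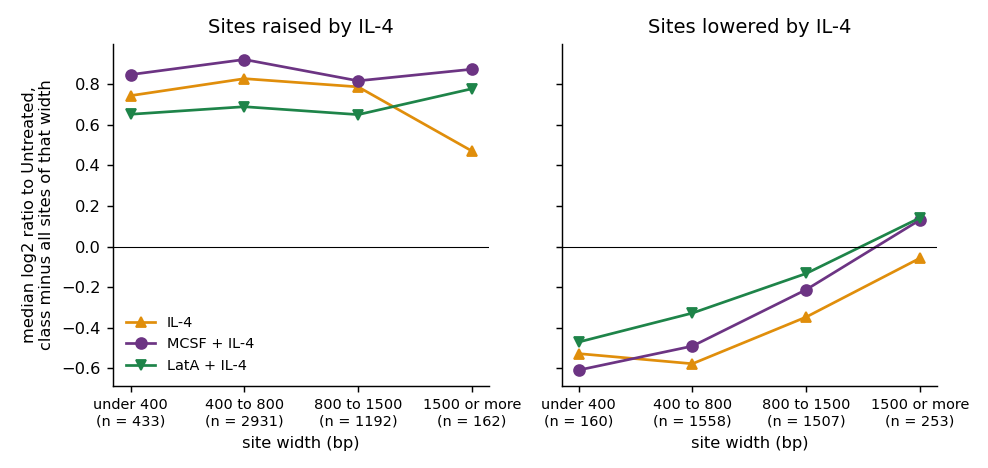
Difference between the median log2 ratio to Untreated of raised (left) or lowered (right) sites and that of all sites of the same width, in 4 classes of site width in bp with the number of raised or lowered sites in each. Orange triangles are IL-4, purple circles MCSF + IL-4 and green triangles LatA + IL-4, all against the same Untreated library. For MCSF + IL-4 the raised sites stay between 0.82 and 0.92 above in every class, and the lowered sites go from −0.61 to 0.13.

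The rise at raised sites was found along the whole genome. The median log2 ratio of MCSF + IL-4 to Untreated at all sites ranged from 0.57 on chromosome 4 to 0.75 on chromosome 10. At raised sites it ranged from 1.38 on chromosome 15 to 1.80 on chromosome 6. The difference between the 2 was smallest on chromosome 15 (0.77) and largest on chromosome 11 (1.12), and it was above 0 on all 19 chromosomes. Chromosome 14 had the largest share of raised sites, 17.5%, and chromosome 11 the smallest, 10.5%. Within ranges of mean signal the difference was as even, at 1.00 from 3.2 to 6.4 and 0.94 in each of the next 2 ranges, unlike within ranges of the DMSO level, given earlier. The range of highest signal held too few raised sites for a median.

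Raised sites were spread over many windows, and a few windows held many. Another raised site lay within 10 kb of 17.7% of them, against 10.3% of all sites, and the median distance to another raised site was 70.5 kb, against 118 kb. Of the 100 kb windows with a raised site, 2714 held 1, 622 held 2, and 4 held 10 or more. All 4 were on chromosome 14. In the 3 that adjoin, from 44400001 to 44700000, there were 52 sites, of which 34 were raised, and all 34 were at least 1.5-fold higher in MCSF + IL-4 than in Untreated. So were the 18 sites there that were not raised, with a median log2 ratio of 1.36, and 10 of them passed 1.5-fold relative to the median site. The log2 ratios of the raised sites ran from 0.76 to 3.86 with a median of 2.04, and 30 of the 34 passed 1.5-fold relative to the median site. The median normalized reads at these 34 sites were 27.4 in Untreated and 34.2 in DMSO. They were 250 in IL-4, 217 in DMSO + IL-4, 398 with latrunculin A and 324 with MCSF. Both controls were low and the 2 libraries with an added treatment were highest. In the fourth window, from 51800001 to 51900000, 13 of 15 sites were raised. All 15 were higher in MCSF + IL-4, with a median log2 ratio of 2.10 over the 15 and over the 13. Passing 1.5-fold in MCSF + IL-4 did not set raised sites apart in these windows on the deposited scale. Relative to the median site it was passed by 30 of 34 raised and 10 of 18 other sites in the 3 adjoining windows. In the fourth it was passed by 13 of 13 and 1 of 2. The reads of a repeated stretch can be counted at several of its copies, and neighbouring sites of 1 window are not independent. Whether these windows hold repeated sequence was not tested. At the other end, 3 raised sites in the window of chromosome 7 from 67000001 to 67100000 all missed 1.5-fold in MCSF + IL-4, with a median of −0.63, and IL-4 without vehicle had a median of −0.23 there.

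The deposited peak lists, 1 for each library, come from the same reads and are no separate evidence. An Untreated peak overlapped 89.0% of the raised sites by at least 1 bp (88.0 to 89.8), and an MCSF + IL-4 peak overlapped 98.9% (98.6 to 99.2). Over all sites the shares were 97.6% and 98.1%. A peak in MCSF + IL-4 and none in Untreated was found at 503 raised sites (10.7%), against 2.12% of all sites, and the opposite at 33 (0.70%), against 1.62%. The first share went with the filter. At the 1613 raised sites that reached 3.2 in DMSO it was 1.86% (30 sites), against 0.61% of all such sites, and the opposite was found at 14 (0.87%), against 1.75%. The median fold enrichment over the local background, the authors' value for each peak, was 6.74 for Untreated peaks and 12.4 for MCSF + IL-4 peaks at raised sites. At all sites these medians were 9.29 and 11.5. Among sites that reached 3.2 in DMSO they were 9.44 and 13.6 at raised sites and 10.2 and 11.7 at all sites. At lowered sites an MCSF + IL-4 peak without an Untreated one was found at 1.09% and the opposite at 2.04%. Of the 648 raised sites that did not reach 1.5-fold in MCSF + IL-4, 97.5% had an Untreated peak and 94.0% an MCSF + IL-4 peak, so few of them were without a called peak. Peak calling depends on depth, which was greatest in Untreated.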

How the data were processed

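ATAC-seq was analysed in 6 libraries of mouse BMDMs, 1 per group, grouped by the labels. Per the study's methods, reads were trimmed with Cutadapt, aligned to mm9 with Bowtie2 (up to 10 alignments per read), freed of duplicates (Picard), blacklisted regions and mitochondrial reads, and counted with featureCounts. Tool versions are not given in the sources used here.

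For each site and library the deposited table gives a signal, namely CPM that the authors scaled by TMM in edgeR. All values fell on whole multiples of a step of their column (tolerance 1e-06), so whole reads were recovered for 100% of values. No count test was run on them, since each group has 1 library. The deposited peak lists come from macs2, which the authors ran on each library, and hold a fold enrichment (a ratio to the local background), a −log10 q-value, used as a stricter threshold, and a score, not used. No per-sample column was left unused.

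Normalized reads are reads over the effective library size of the deposited scaling, times the geometric mean of those sizes. Log2 ratios had 1 read added, and 1.5-fold was the threshold, as in the study's methods. For shares and ratios the 95% intervals are Clopper-Pearson (exact), and for medians order-statistic. Those of ratios cover counting error only, and reads from PCR carry no molecular identifiers and are not independent. Those of shares and medians are taken over sites and treat them as independent. A mean signal of 3.2 stands for 39.9 reads in DMSO + IL-4 and 66.8 in Untreated. Computation used Python 3.11.15, pandas 2.3.3 and scipy 1.17.1, and was checked on simulated data.

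Named sites, at most 1 per Mb, were the 5 raised and 4 lowered sites with the largest smaller-of-2 log2 ratios in the DMSO pair and in MCSF + IL-4 against Untreated, the 4 lowest and 3 highest in MCSF + IL-4 among sites raised or lowered at least 2-fold in the DMSO pair and 1.5-fold in IL-4, and the 4 highest and 4 lowest among sites within 1.2-fold in both IL-4 comparisons. The sites, lists and rules were chosen with earlier results of these data known. The last chromosome 1 site ends at 197195351 in mm9, and reference genes and sequence of that build were not used here, so the gene lists and marker lists drawn up for this comparison are not analysed here. Alternatives covered scaling, signal trend, reads added, filter, fold, counting error, chromosomes, baseline and the pair that picks IL-4 sites. Centring, the filter on 4 libraries and the restriction to sites that reach 3.2 in DMSO were added after seeing the data.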

Additional observations from a re-analysis of the deposited data

How the results depend on the processing

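Each group has 1 library, so no replicate could be left out. No paired analysis was possible because each group holds 1 library and the comparisons rest on no test. The values below give the cause only where an alternative's construction shows it, and for the rest the cause was not tested. Of 97 recomputed values of the main results, 44 stayed within 1.5 times (counts) or within the main interval (medians).

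Sites at least 1.5-fold higher in MCSF + IL-4 than in Untreated, 18639 as reported, numbered 7040 with the trend over signal removed, 6892 centred on the median site, 45281, 7643 and 156908 with a filter of 1.3, of 6.4 and with none, 10373 at 2-fold and 11003 with DMSO as the baseline. Lower sites, 1738 as reported, numbered 6218, 6675, 18020, 379, 153033 and 544 under the first 6 of these, and 3413 with reads outside the strongest sites as the scale. Raised sites that were higher, 4070 as reported, numbered 12830, 1122 and 50811 under the 3 filters, 1805 at 2-fold, and 6934 when IL-4 against Untreated, which shares a library, picked the sites. Filters and fold change the number of sites that can be counted. As a share of raised sites, against all sites, 86.3% (55.7%) as reported became 61.6% (36.8%), 90.6% (60.4%) and 38.1% (29.4%) under the 3 filters and 84.8% (31.0%) at 2-fold.

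The median log2 ratio at raised sites, 1.65, was 1.49 with total reads as the scale, 1.39 outside the strongest sites, 0.96 with the trend removed, 0.94 centred (sites picked on centred ratios too), 1.58 with 5 reads added, 1.08 with a filter of 1.3, 0.15 with none, 2.09 at 2-fold, 1.54 with IL-4 against Untreated picking the sites and 1.58 with the filter on 4 libraries. Less the median of all sites it was 0.98 as reported and 0.91 to 1.00 under the scalings, 0.82 with a filter of 1.3 and 0.15 with none, where most sites have few reads.

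For lowered sites, the number lower, 258 as reported, was 501 outside the strongest sites, 1025 with the trend removed, 975 centred, 2932, 40 and 43904 under the filters and 64 at 2-fold. The shares, against all sites, were 7.42% (5.19%) as reported and then 13.5% (10.2%), 32.4% (18.6%), 32.8% (19.9%), 18.5% (14.7%), 3.68% (2.996%), 34.1% (28.7%) and 9.21% (1.63%). Their median, 0.32, changed sign to −0.36 with the trend removed, −0.36 centred and −0.14 with no filter. It was 0.21 with total reads, 0.053 outside the strongest sites, 0.30 with 5 reads added, 0.075 and 0.35 with filters of 1.3 and 6.4, 0.24 at 2-fold and 0.067 with IL-4 against Untreated picking the sites. Raised sites lower than in IL-4, 217 as reported, numbered 330 outside the strongest sites, 746 with the trend removed, 822 centred, 2583, 25 and 35634 under the filters and 46 at 2-fold. Their shares, against all sites, were 4.60% (5.01%) as reported and then 7.27% (8.88%), 15.1% (16.5%), 15.99% (18.5%), 12.4% (14.4%), 2.02% (2.22%), 26.7% (26.6%) and 2.16% (1.34%).

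All 144 recomputed log2 ratios of the 24 named sites under 6 alternatives kept their direction, and the 138 of sites past 1.5-fold stayed past it. These alternatives were of scaling, trend, reads added and centring, and Untreated stayed the baseline. Against DMSO, the named sites on chromosome 10 (30.5 normalized reads with MCSF, 9.01 in DMSO) and chromosome 18 (93.7 and 127) changed direction. The others kept it. With 50% of each peak and site required to overlap, 54.3% of raised sites had an Untreated peak and 87.0% an MCSF + IL-4 peak, and at a −log10 q of 5 these were 86.0% and 97.7%. Depth limits the ratios of sites with few reads, such as 2 reads in MCSF + IL-4 or 3 in Untreated, most.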

Other observations

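Sites on the sex chromosomes were left out of the comparison. On X, 1865 sites reached a mean signal of 3.2. Their median log2 ratio of MCSF + IL-4 to Untreated was −0.26, with 26.0% at least 1.5-fold higher and 31.5% lower. The 122 X sites raised by IL-4 in the DMSO pair had a median of 1.11, and 80 of them were at least 1.5-fold higher. On Y, 108 sites had a median of −0.51, with 3.70% higher and 42.6% lower. X sites took 5.63% of the reads in Untreated and 4.90% in MCSF + IL-4. These are values of single libraries, and the reason for the lower ratios on X and Y was not tested.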
